A study of Mus musculus with 6 samples.

Results

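Ccnd2, Myc and Eras are 3 genes of cell growth that were measured in mouse embryonic stem cells (mESCs) with wild-type SOX2 or with SOX2 in which a serine that carries O-GlcNAc had been replaced by alanine. They were chosen by the contrast reported here: each stood in the study's own list of genes that differed between these 2 mESC lines on these arrays, at a paired test p under 0.05 and a fold change of at least 1.5. They are 3 of the 741 probes that carry a gene name among the 23949 probes of the processed table. Because that contrast selected them, their levels and differences are given as a description, and no p-value is attached to any of them.

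Both lines came from mESCs whose endogenous Sox2 had been deleted and which lived on an untagged Sox2 transgene that doxycycline shuts off. fSOX2-Tg mESCs carried a 3xFLAG-tagged wild-type SOX2 and fS248A-Tg mESCs the same construct with that alanine, each driven by the CAG promoter. Both were selected with puromycin, expanded from colonies and kept with LIF and 1 µg/ml doxycycline, so that the tagged protein was the source of SOX2. Total RNA of 3 replicates per line was read on 6 single-color arrays. The 2 lines thus differ in the transgene and in the colonies that were expanded, and these cannot be told apart.

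Ccnd2 encodes cyclin D2, a partner of CDK4 and CDK6 that helps cells pass from G1 into S phase. Myc encodes the transcription factor c-MYC, which pairs with MAX at E-box sequences and drives ribosome production, metabolism and proliferation. In mESCs, Myc lies downstream of LIF signaling. Eras encodes ERAS, a Ras protein of embryonic stem cells that binds GTP without stimulation, activates PI3K and promotes their proliferation and their ability to form teratomas. The cell cycle of mESCs is known for a short G1 phase and for low amounts of D-type cyclins.

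In the GRCm38.p6 annotation Ccnd2 lies on chromosome 6 (127125162 to 127152188), Myc on chromosome 15 (61985341 to 61990361) and Eras on the X chromosome (7924276 to 7928607). The RefSeq table used here held the promoter of 1 of the 3 genes. That gene is Eras, and its promoter is shown for this reason. SOX proteins bind the core motif CATTGT. The window runs from 250 bases before the start site to 50 bases into the gene, on the minus strand at chrX:7928558-7928857, with the single match to CATTGT in capitals.
Eras promoter: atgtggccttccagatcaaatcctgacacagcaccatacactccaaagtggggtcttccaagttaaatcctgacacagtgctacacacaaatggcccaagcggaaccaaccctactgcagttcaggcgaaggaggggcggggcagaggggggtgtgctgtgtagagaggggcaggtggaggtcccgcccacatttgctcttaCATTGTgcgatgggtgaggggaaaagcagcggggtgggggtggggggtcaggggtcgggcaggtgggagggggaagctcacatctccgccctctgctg

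CATTGT, read on both strands as CATTGT or ACAATG, matched 1 time in the Eras window and began 48 bases before the start site. It was present in 12.57% of the 32851 promoters in the table. The octamer ATGCAAAT of POU factors such as OCT4 had 0 matches on either strand, against a match in 1.74% of all promoters, and the E-box CACGTG of MYC and MAX had 0 matches, against 7.15%. The window was richer in G and C than most, at 60.0% against a median of 52.7%. The letters describe this window and do not show where any protein binds.

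For Ccnd2, the study also designed primers for RT-qPCR, which mark the transcript that it followed beside the arrays. The RT-qPCR values were not analysed here.
Ccnd2 forward primer: gagtgggaactggtagtgttg
Ccnd2 reverse primer: cgcacagagcgatgaaggt
The forward primer has 21 bases, 52.4% of them G or C, and the reverse primer has 19 bases, 57.9% of them G or C.

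The arrays differed in brightness. The 75th percentile of the spot intensity, by which each array was scaled, lay between 184 and 457 scanner units in fSOX2-Tg and between 283 and 450 in fS248A-Tg. One array stood apart. On the processed values of the 17133 probes detected well above background throughout, fSOX2-Tg replicate 2 differed from the other 2 arrays of its own line with a standard deviation of 0.768 in log2 and from the fS248A-Tg arrays with a smaller one, 0.568. The other 5 arrays were each nearer to their own line, at 0.579 to 0.690 against 0.631 to 0.837. The margin was narrowest for fS248A-Tg replicate 2, at 0.621 to its own line and 0.631 to the other. Differences are therefore given with and without fSOX2-Tg replicate 2. Replicates 1 and 2 of both lines shared slide 1, and replicate 3 of both lines was on slide 2. The label of the cells could not be checked by their own markers, since 0 of 23 mESC marker genes had a named probe.

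Each of the 3 genes was read from 1 probe with 1 spot per array. Most probes carry no name, so other probes of these genes could not be sought. Each spot was well above background on 6 of 6 arrays, unsaturated and not marked as an outlier. The scanner's own error for these spots was 0.144 to 0.159 in log2. Levels are log2 ratios of the spot to the 75th percentile of its array, so that 0 is the intensity of that percentile. The level of one probe is not compared with that of another, because probes differ in how brightly they bind.

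Ccnd2 was 4.69-fold higher in fS248A-Tg mESCs. In fSOX2-Tg replicates 1, 2 and 3 its log2 level was 2.80, 3.18 and 3.80. In fS248A-Tg replicates 1, 2 and 3 it was 4.90, 5.90 and 5.67. The 3 fS248A-Tg arrays all lay above the 3 fSOX2-Tg arrays, and the nearest pair was 1.097 apart in log2, while the arrays of a line spread over 1.00 and 1.01.

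The mean log2 level of Ccnd2 was 3.26 ± 0.50 (SD, n = 3) in fSOX2-Tg and 5.49 ± 0.53 (SD, n = 3) in fS248A-Tg, a difference of 2.23 with a standard error of 0.34 in limma. Between arrays of the same replicate number the difference was 2.10, 2.72 and 1.87. Before any scaling, the spot read 2116, 4148 and 2562 scanner units in fSOX2-Tg and 13418, 18924 and 14409 in fS248A-Tg. The lines did not overlap in these units either. The Ccnd2 spot was at least 14.7 times as bright as the brightest of 20 negative control sequences on each array. Its local background was marked by the scanner as an outlier of the background population on 6 of 6 arrays and as non-uniform on fSOX2-Tg replicate 1, and the part of these marks in the values was not tested.

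**Figure D1:**
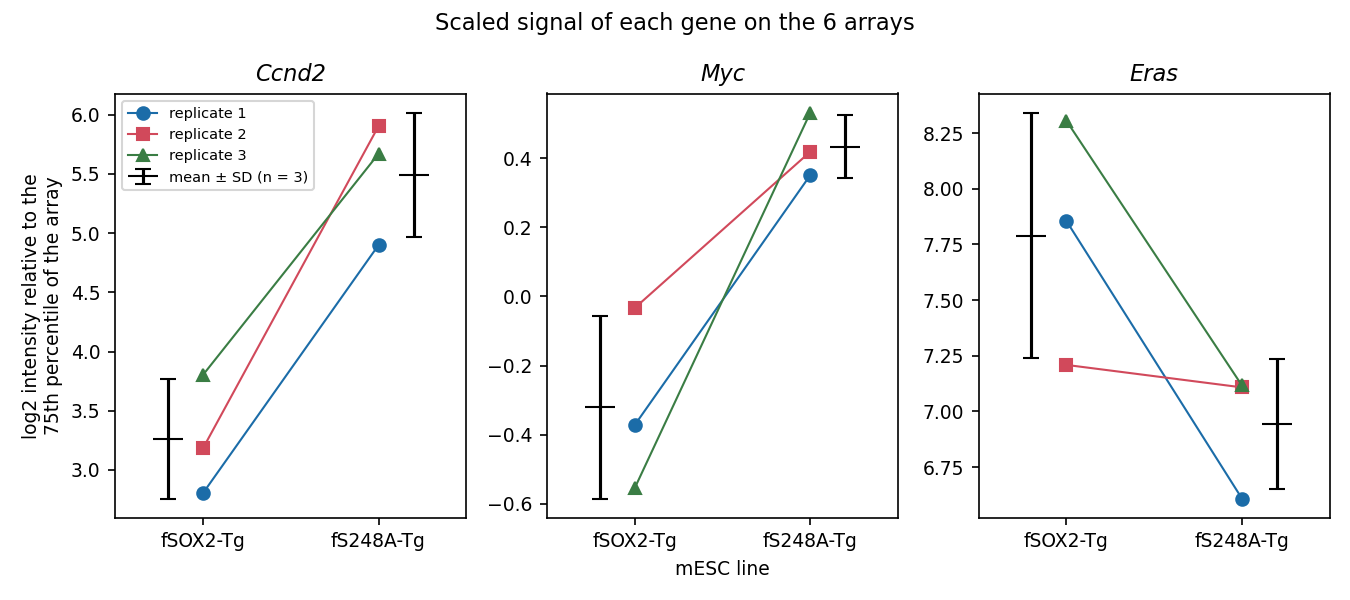
Log2 ratio of the spot intensity to the 75th percentile (vertical axis, a different range in each panel) for Ccnd2, Myc and Eras in fSOX2-Tg and fS248A-Tg mESCs; points joined by a line have the same replicate number, and black bars give the mean ± SD (n = 3). All joined lines climb for Ccnd2 and Myc and descend for Eras, where the line of replicate 2 is nearly flat, with a difference of -0.10.

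Myc was 1.69-fold higher in fS248A-Tg, from a dim spot. Its log2 level was -0.37, -0.03 and -0.56 in fSOX2-Tg replicates 1, 2 and 3. It was 0.35, 0.42 and 0.53 in fS248A-Tg replicates 1, 2 and 3. The lines did not overlap, and the gap between them was 0.38 in log2.

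The mean log2 level of Myc was -0.32 ± 0.27 (SD, n = 3) in fSOX2-Tg and 0.43 ± 0.09 (SD, n = 3) in fS248A-Tg, a difference of 0.75 with a standard error of 0.33 in limma. The differences at equal replicate numbers were 0.72, 0.45 and 1.09, all in the same direction. The 3 fS248A-Tg values lay within 0.18 of each other, close to the scanner's error for a single spot. Over both lines the pooled SD of Myc was 0.20 in log2, and 6.7% of the probes tested had a smaller one.

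Myc depended on scaling for the separation of the lines. Its unscaled intensity was 234, 447 and 125 units in fSOX2-Tg and 573, 422 and 409 in fS248A-Tg. The lines overlapped in these units, because fSOX2-Tg replicate 2, the brightest array at its 75th percentile, read above 2 of the fS248A-Tg arrays. In fSOX2-Tg the Myc spot was 1.37 to 1.72 times as bright as the brightest negative control sequence, and in fS248A-Tg 2.69 to 6.93 times. A spot this near the controls carries more background in its value than the Ccnd2 and Eras spots, and with the normexp background correction the difference of Myc was 0.60 in log2.

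Eras was lower in fS248A-Tg, at 55.6% of its fSOX2-Tg level, a 1.80-fold difference. Its log2 level was 7.86, 7.21 and 8.31 in fSOX2-Tg replicates 1, 2 and 3. It was 6.61, 7.11 and 7.12 in fS248A-Tg replicates 1, 2 and 3. The lines did not overlap, but fSOX2-Tg replicate 2 lay 0.09 above the highest fS248A-Tg array, less than the scanner's error.

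The mean log2 level of Eras was 7.79 ± 0.55 (SD, n = 3) in fSOX2-Tg and 6.94 ± 0.29 (SD, n = 3) in fS248A-Tg, a difference of -0.85 with a standard error of 0.37 in limma. At equal replicate numbers the difference was -1.25, -0.10 and -1.19. The scaled values thus put nearly all of the difference in replicates 1 and 3.

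The unscaled Eras intensities were more even. The spot read 70232, 67629 and 58098 units in fSOX2-Tg and 43870, 43588 and 39252 in fS248A-Tg. The ratio of fS248A-Tg to fSOX2-Tg at equal replicate numbers was 0.625, 0.645 and 0.676, so that in these units replicate 2 did not stand apart. The brightest array exceeded the dimmest 1.21-fold in fSOX2-Tg and 1.12-fold in fS248A-Tg before scaling. After scaling those spreads were 2.14-fold and 1.42-fold. The local background of the Eras spot was marked as an outlier of the background population on fSOX2-Tg replicate 1, and the part of this mark was not tested.

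**Figure D2:**
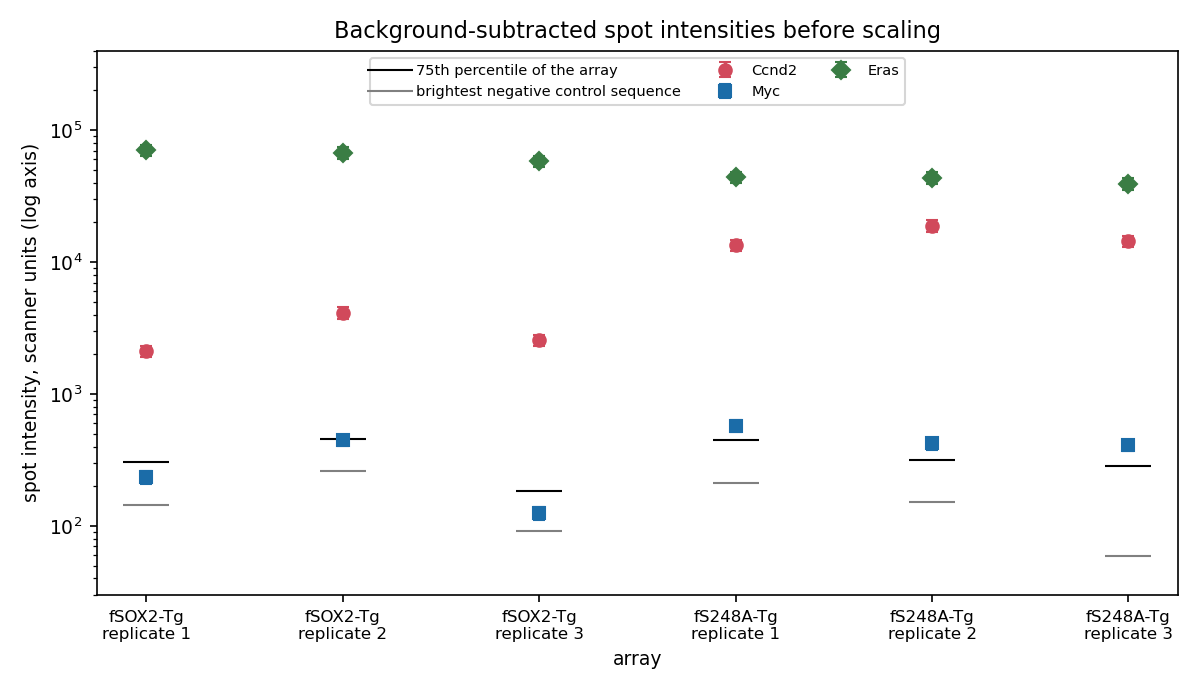
Background-subtracted spot intensity in scanner units (vertical log axis) of Ccnd2, Myc and Eras on each of the 6 arrays before scaling; bars are the scanner's error, black dashes the 75th percentile of the array and grey dashes the brightest negative control sequence. Eras stays between 39252 and 70232 units while the 75th percentile varies from 184 to 457, Ccnd2 is brighter on all 3 fS248A-Tg arrays, and Myc lies just above the grey dashes in fSOX2-Tg.

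The arrays carried 11 reference genes, each in 20 spots, that were named by accession and were not chosen on this contrast. Their differences between the lines ranged from -0.37 for Gusb, a lysosomal enzyme, to 0.50 for Hsp90ab1, a chaperone. The lines did not overlap for 2 of the 11, Hprt at -0.35 and Rpl13a at 0.47. The differences of Ccnd2, Myc and Eras were larger in size than those of all 11 reference genes on this scale. Their selection at a fold change of at least 1.5 on these arrays favors this, so nothing is read from it. Without scaling, Hsp90ab1 at 0.72 and Rpl13a at 0.69 exceeded Eras at -0.63 in size, and with Gusb as the scale Hsp90ab1 at 0.87 and Rpl13a at 0.84 exceeded Eras at -0.48. Over 20 spots of one reference gene on one array the median SD was 0.028 to 0.091 in log2. For Hprt, the gene at the upper end, this exceeded its SD of 0.04 between the fSOX2-Tg arrays.

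Across arrays of one line, Eras deviated in the same way as several of the reference genes. Its deviations from its line means were 0.07, -0.58 and 0.52 in fSOX2-Tg and -0.34, 0.16 and 0.17 in fS248A-Tg. The correlation of these 6 deviations with those of Tuba1b, Gapdh and Ppia, which encode a tubulin, a glycolytic enzyme and a prolyl isomerase, was 0.979, 0.973 and 0.971, and with the log2 75th percentile of the array it was -0.985. These points share the arrays and the scaling itself. With Tfrc, the transferrin receptor gene, it was 0.947 and with Actb, the actin gene, 0.79. Over the other 6 reference genes it ranged from -0.30 to 0.453, with 0.015 for Hsp90ab1. For Rpl13a, a ribosomal protein gene whose arrays agreed within an SD of 0.06 and 0.07, the correlation with Eras was 0.219.

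Scaled instead to the mean of Gapdh, Ppia and Tuba1b, Eras had an SD of 0.08 in fSOX2-Tg and 0.11 in fS248A-Tg (n = 3 each). On that scale the difference of Eras was -0.70, and the lines did not overlap. Ccnd2 differed by 2.37 with SDs of 0.45 and 0.32, again without overlap. Myc differed by 0.90 with SDs of 0.82 and 0.22, and its lines overlapped. That scale was chosen after the values had been seen. Which scale follows the amount of RNA more closely was not tested.

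**Figure D3:**
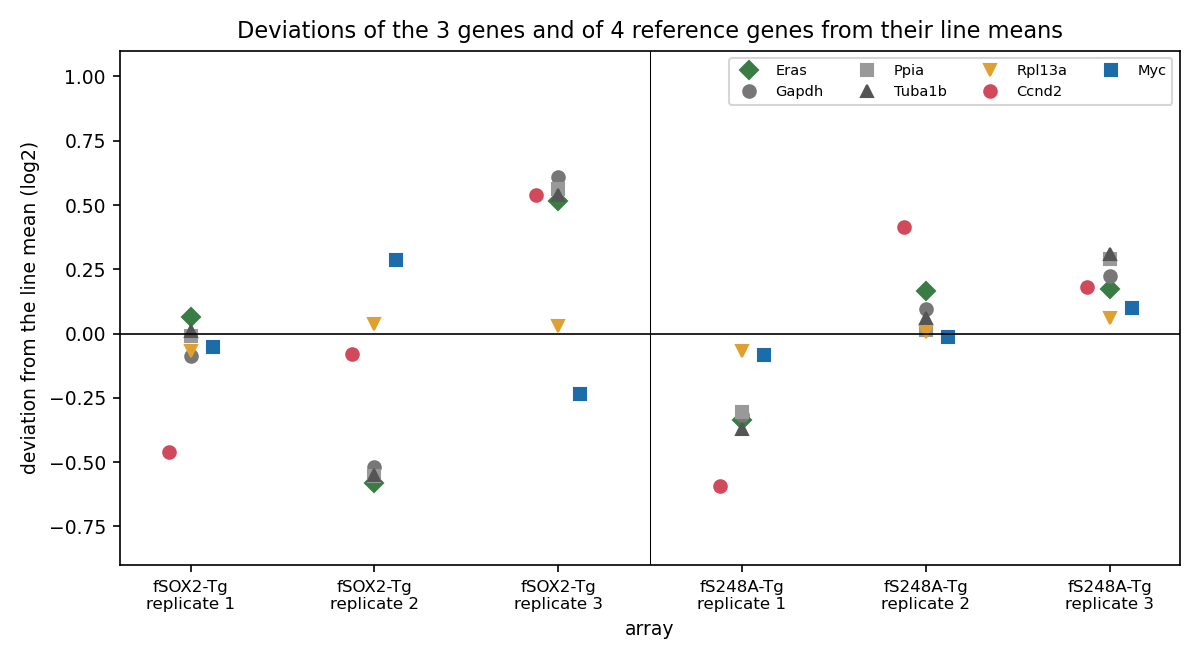
Deviation of each array from the mean of its line (vertical axis, log2) for Eras, Ccnd2 and Myc and for the reference genes Gapdh, Ppia, Tuba1b and Rpl13a; the vertical line separates the 2 lines. Eras lies with Gapdh, Ppia and Tuba1b on all 6 arrays, Myc lies opposite to them on fSOX2-Tg replicates 2 and 3, and Rpl13a stays near 0.

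The deviations of the 3 genes from their line means did not run together. Their correlation over 6 arrays was -0.16 for Ccnd2 with Myc, 0.652 for Ccnd2 with Eras and -0.713 for Myc with Eras. Over the log2 values, which hold the difference between the lines for which the genes were picked, it was 0.838, -0.563 and -0.882. Ccnd2 was highest in fS248A-Tg replicate 2, Myc in fS248A-Tg replicate 3 and Eras in fSOX2-Tg replicate 3.

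Among the 19779 probes tested with limma, with the replicate number as a block, 3.70% were higher and 5.59% lower in fS248A-Tg with a fold change of 1.5 or more at an unadjusted p under 0.05. In this setting Ccnd2 was past the threshold, and Myc and Eras were not. The 3 genes were selected on these same arrays, so neither outcome is a test of them. For Myc and Eras this turned on the setting. Both passed without the block and with slide as a block. With the block, both also passed under normexp, among the probes detected on every array, and without replicate 2. Neither passed without replicate 1, without replicate 3, with dim probes kept, or without scaling between arrays. Neither passed when scaled to all reference genes or to Gapdh, Ppia and Tuba1b. With single arrays left out and no block, both passed only without fSOX2-Tg replicate 2. After quantile normalization, on the processed values and scaled to Gusb, Myc passed and Eras did not. Same-numbered arrays did not deviate together throughout in these data (correlations of 0.23, -0.24 and -0.0034). None of the 19779 probes passed after Benjamini-Hochberg adjustment. The arrays of the 2 lines did not overlap for 4.65% of probes in the higher direction and 7.97% in the lower direction. All 3 genes had such a gap, which their selection on these arrays favors.

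In size, 57 probes (0.288% of 19766 with a value on all arrays) were raised by more than Ccnd2 in fS248A-Tg. Myc was exceeded by 1669 probes (8.44%) and Eras by 1415 probes (7.16%) in their own directions. The median difference of all probes was -0.10, with quartiles of -0.42 and 0.28. Ccnd2 lay in the far upper tail, and Myc and Eras beyond the quartiles. A fold change of at least 1.5 on these arrays was a condition of their selection, so a place beyond the quartiles was largely set by it.

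**Figure D4:**
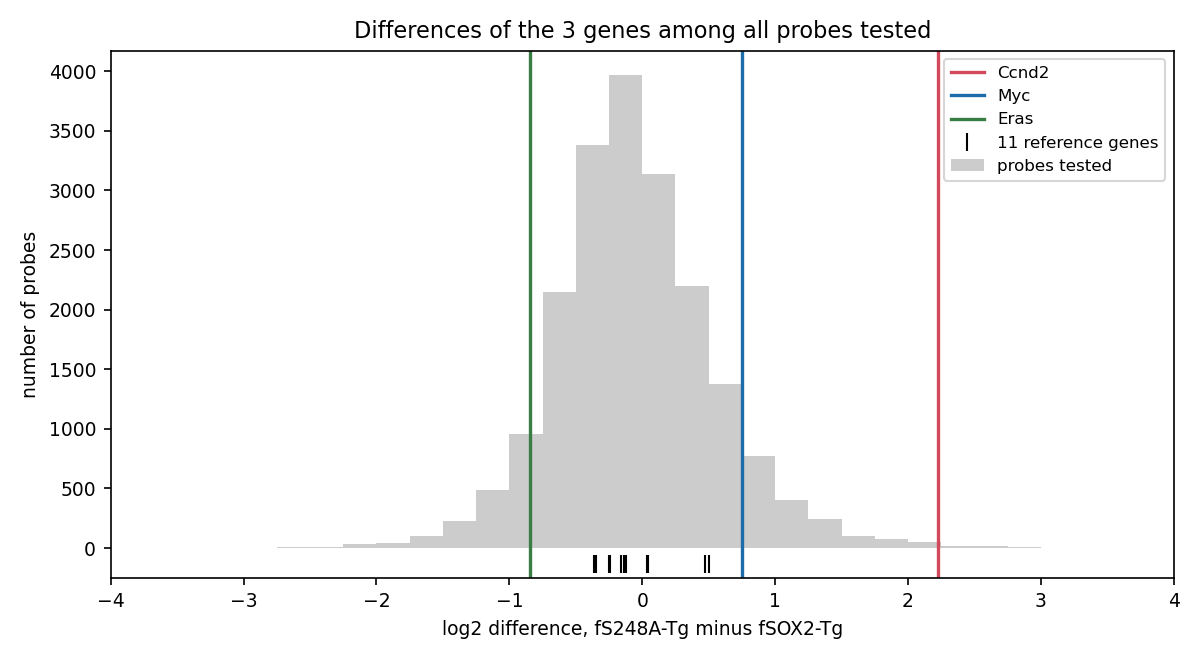
Number of tested probes (vertical axis) by log2 difference, fS248A-Tg minus fSOX2-Tg (horizontal axis), with colored lines for Ccnd2, Myc and Eras and black ticks for 11 reference genes. Ccnd2 at 2.23 lies in the far upper tail, and Myc at 0.75 and Eras at -0.85 lie outside the ticks, within the shoulders of the distribution. Ccnd2, Myc and Eras were selected for differing on these arrays, which favors such places.

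The direction of each gene held under every setting tried. Leaving out arrays or taking a single slide could not turn it, since the scaled lines did not overlap. The genes were selected on the authors' processed values, which are among the settings, so nothing is read from the direction there. Without fSOX2-Tg replicate 2 and without the block, the difference was 2.19 for Ccnd2, 0.90 for Myc and -1.14 for Eras. Within slide 1 the differences were 2.41, 0.59 and -0.67, in the same order, and within slide 2, which held 1 array per line, 1.87, 1.09 and -1.19. On the authors' processed values they were 2.27, 0.75 and -0.68.

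With Gusb as the scale, the gene the study used for RT-qPCR, the difference was 2.59 for Ccnd2, 1.12 for Myc and -0.48 for Eras. Gusb itself was lower in fS248A-Tg by 0.37 with overlapping lines, and scaling to it moved the median of all probes from -0.10 to 0.27. A scale that shifts each array by a constant moves every probe alike, so that the distance of a gene from the median of all probes is fixed among such scales, at 2.33 for Ccnd2, 0.85 for Myc and -0.75 for Eras. Quantile normalization, which is not such a shift, gave 2.25, 0.73 and -0.70, the processed values 2.25, 0.73 and -0.69, and normexp 2.26, 0.60 and -0.73.

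**Figure D5:**
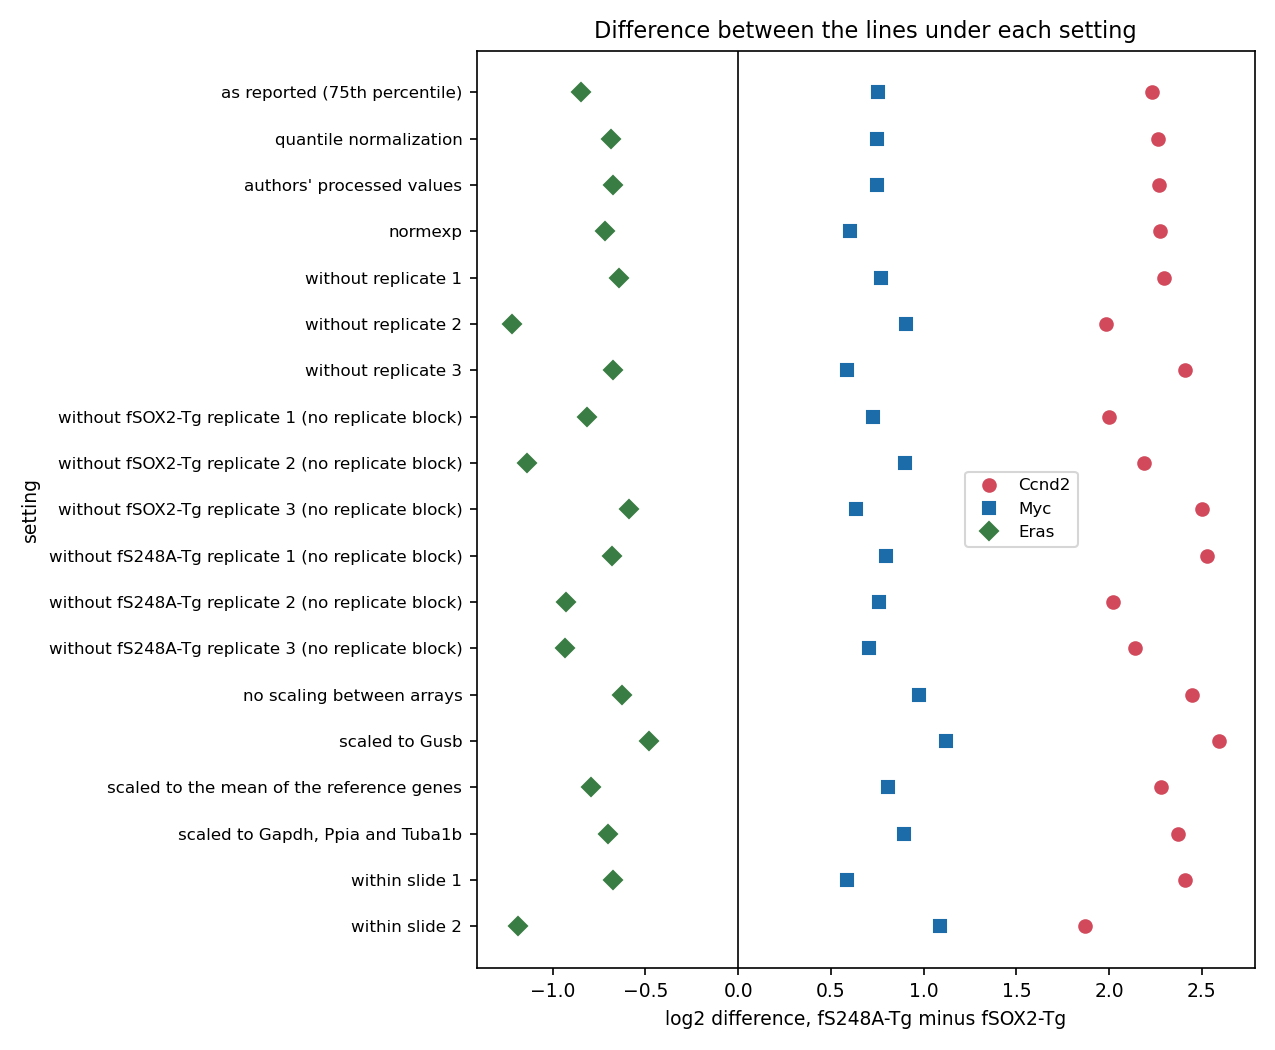
Log2 difference, fS248A-Tg minus fSOX2-Tg (horizontal axis), of Ccnd2, Myc and Eras under each setting (vertical axis), leaving out filters and blocks, which do not move it. Ccnd2 stays between 1.87 and 2.59, Myc between 0.59 and 1.12 and Eras between -1.22 and -0.48, and none crosses 0. Settings that leave out arrays or take a single slide could not cross 0, since the scaled lines do not overlap.

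Few other genes of these pathways could be named, and nearly every name comes from the study's list of differing genes, which was picked on these samples. Their counts are therefore no independent evidence of a direction. Of 30 genes of cyclins, CDKs and the G1/S step, 2 had a named probe, Ccnd2 and Cdc25b, a phosphatase that activates CDK1. Cdc25b passed the threshold and was lower in fS248A-Tg, with a log2 difference of -1.02 (SE 0.36). Its lines overlapped, at -1.71, -0.64 and -1.31 in fSOX2-Tg and -2.31, -1.41 and -2.99 in fS248A-Tg. The cyclin and the phosphatase thus lay on opposite sides of 0.

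Of 22 genes of the Myc network and textbook Myc targets, Myc and Ldha were named, and neither passed the threshold. Ldha, the lactate dehydrogenase subunit of glycolysis, differed by 0.55 (SE 0.32), and its lines overlapped. Of 46 genes of Ras, MAPK and PI3K signaling, 4 were named and 3 tested. Fos, an early transcription factor downstream of MAPK, was higher by 0.87 (SE 0.32), and Mlst8, a subunit of the mTOR complexes, by 0.79 (SE 0.32). Both passed the threshold although their lines overlapped, while Eras did not pass and Shc3, an adaptor of receptor signaling, was well above background on 3 arrays and was not tested.

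Markers of other cell types moved with the same contrast. Of 26 such genes, 6 were named and 5 tested, and the 5 were all past the threshold and higher in fS248A-Tg, as were 3.70% of all probes. The names again come from the list picked on this contrast, so nothing is read from this count. These were Gata6 (2.18), Col4a1 (1.86), Dab2 (1.61) and Gata4 (1.32), which mark primitive endoderm, and the keratin gene Krt18 (1.07). Dab2 was well above background on 4 of 6 arrays and was tested because it was so on all fS248A-Tg arrays, where it was high. Alb, the serum albumin gene of liver, lay the other way, at a mean log2 level of -3.02 in fSOX2-Tg and -5.15 in fS248A-Tg without overlap. It was well above background on 2 arrays and was not tested. The summed level of the named markers was 9.91 to 15.2 times the 75th percentile in fSOX2-Tg and 29.0 to 57.0 times in fS248A-Tg. This sum adds probes that bind unequally, for genes named mostly because they differed, so nothing is read from it either. In bulk RNA a change in the share of such cells and a change per cell cannot be told apart, and the part of these cells in the differences of Ccnd2, Myc and Eras was not tested.

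Of the 444 named genes with which each was compared, the 3 whose log2 values over 6 arrays correlated best with Ccnd2 were Pknox1 (r = 0.990), Calml4 (0.983) and Raet1a (0.975). For Myc they were Atl2 (0.992), Map4k3 (0.990) and Tmem47 (0.970), and for Eras Got1 (0.988), Plp2 (0.985) and Tagap (0.984). Most names come from genes picked for differing between the lines, which by itself gives high correlations over these 6 arrays. Over deviations from the line means, which remove that difference, Myc had the same genes, Atl2, Map4k3 and Tmem47, at 0.950, 0.940 and 0.807. Eras was then nearest to Got1 (0.998), Tagap (0.968) and Prdm13 (0.965), and Ccnd2 to Gadd45a (0.990), Fam172a (0.988) and Gm3286 (0.982). All arrays and their scaling are shared by these genes, and the deviations come from the same 6 arrays as the log2 values. The highest of 444 correlations over 6 arrays are high by selection alone, so nothing is read from them.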

How the data were processed

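The authors deposited scanner intensity per spot (Agilent Feature Extraction 11.0.1.1, background subtracted, not scaled between arrays) and processed log2 values for 23949 probes, which followed quantile-normalized intensities within an SD of 0.0077 to 0.033. Each intensity was divided by the 75th percentile of its array and put on the log2 scale. Outlier spots were left out (49 to 102 per array), and repeated spots of a probe were averaged. A probe was tested if every array of either line had it well above background (19779 probes), using limma 3.58.1 in R 4.3.3. Replicate number entered as a block, since the study's test was paired. Other values were computed in Python 3.11.15. With the replicate block, limma p-values start from the spread of the 3 differences between same-numbered arrays. limma moves this spread toward one estimated from all tested probes, so the p-values do not measure those differences alone. The number of arrays, 3 per line, limits the precision.

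Ccnd2 and Myc were given by probe. Eras was the probe of the processed table whose paired t-test gave the p and fold of its entry in the study's list within 0.01%, as did 664 of 664 entries, each for exactly 1 probe. Another 116 of 123 accessions were named through RefSeq. The genes and lists were chosen with earlier results of these data known, and the lists after the study's list had been read. Named were the 3 genes, every list gene with a name, and 3 most correlated genes. Alternatives were no block, slide as block, quantile normalization, the processed values, normexp (offset 50, on the median spot signal), 2 other filters, the methods' t-test and leaving out arrays. 4 other scales (none, Gusb, all reference genes, and Gapdh, Ppia and Tuba1b) were added after the data were seen.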

Additional observations from a re-analysis of the deposited data

How the results depend on the processing

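No setting turned the direction of Ccnd2, Myc or Eras. Leaving out arrays or taking a single slide could not turn it, since the scaled lines did not overlap. Myc moved beyond its spread when scaled to Gusb (1.12) and within slide 2 (1.09). At the threshold used, 732 probes were higher and 1105 lower in fS248A-Tg. Leaving out 1 replicate number gave 368 to 2553 higher and 422 to 3362 lower, the extremes coming from replicates 1 and 2. Leaving out single arrays without the block gave 356 to 1921 higher and 588 to 1946 lower, where the most came without fSOX2-Tg replicate 2. Of these, fSOX2-Tg replicate 1 gave 365 and 624, fSOX2-Tg replicate 3 gave 380 higher and fS248A-Tg replicate 2 gave 1124 higher. The methods' t-test gave 163 and 391, and on the processed values 320 and 344. Unscaled values gave 239 and 452, Gusb 2159 and 136, and Gapdh, Ppia and Tuba1b 291 and 691. The cause of these changes was not tested. Leaving out arrays leaves fewer samples, and the counts rose in some of these settings and fell in others. Of all calls 39.8% were higher as reported and 54.2% after quantile normalization.

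Deviations of same-numbered arrays correlated at 0.23, -0.24 and -0.0034. No common pairing was seen, though 3 replicate numbers are too few to exclude one. Without the replicate block the counts were 831 and 1132, and the log2 differences of Ccnd2, Myc and Eras were 2.23, 0.75 and -0.85, as with it. Myc and Eras then passed the threshold, as they did with slide as a block, with normexp, among the probes detected on every array and without replicate 2. Myc also passed after quantile normalization, on the processed values and scaled to Gusb, where Eras did not. Neither passed without replicate 1, without replicate 3, with dim probes kept, without scaling, or on the remaining reference scales. With single arrays left out, both passed only without fSOX2-Tg replicate 2. These outcomes are no test of the genes, which were selected on these arrays.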
